A study of Rattus norvegicus with 20 samples.

Results

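Rats given antibiotics together with short-chain fatty acids (Abx_SCFA, 5 libraries) were compared with rats given antibiotics alone (Abx, 4 libraries). These 9 libraries were taken by their treatment labels from 20 libraries of RNA from the nucleus accumbens, the part of the ventral striatum that serves reward; the other groups drank water (H2O, 5 libraries) or short-chain fatty acids alone (SCFA, 6 libraries). All rats were male wild-type Sprague-Dawley rats of 7 to 9 weeks, kept 2 to a cage, with the assigned solution as their drink, and the series describes all of them as self-administering cocaine, so the antibiotic and the cocaine are common to both groups compared. The sources used here do not name the antibiotics, the acids, their doses or the duration. By their rat numbers, Abx replicates 1 and 2 belong to the 2-hundred series and replicates 3 and 4 to the 3-hundred series. All fatty acid rats belong to the 4-hundred series and no rat without fatty acids does, so effects of the series and of the acids cannot be told apart. Cage mates are not identified, and p-values measure the spread between these rats only.

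Short-chain fatty acids (acetate, propionate and butyrate) are made by gut bacteria from dietary fibre, and antibiotics that deplete the bacteria lower the supply. They cross membranes through monocarboxylate transporters, bind the receptors FFAR2 and FFAR3, and butyrate inhibits histone deacetylases, which remove acetyl groups from histones. In rodents with a depleted microbiome, these acids are known for effects on microglia and on the tight junctions of the blood-brain barrier. That barrier is built by endothelial cells, which seal their contacts with claudins and occludin and carry glucose inward by GLUT1, and by the pericytes around them. Most neurons of the nucleus accumbens are GABAergic medium spiny neurons bearing the dopamine receptor D1 or D2.

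Library totals ran from 17525358 to 25366231 counts in Abx and from 18375538 to 25731636 in Abx_SCFA, and a count of 0 allowed up to 0.115 to 0.171 CPM (counts scaled to a fixed effective library size) over the 20 libraries, for counting error only. The tissue label was checked against markers. Drd1, the D1 receptor gene, stood at 333 to 462 CPM in Abx and at 342 to 437 CPM in Abx_SCFA, and Ttr, the choroid plexus transthyretin, was at or below 0.171 CPM. Slc17a7, which cortical excitatory neurons use to load glutamate into vesicles, varied widely between libraries and read 506, 43.7, 183 and 458 CPM over the 4 Abx libraries and 132 to 339 CPM in Abx_SCFA. In Abx_SCFA replicate 5, the neuronal gene Cend1 stood at 0.306 CPM against 6.08 to 8.56 CPM in the other 4. Outside the compared groups, Cend1 was as low in all SCFA libraries, at 0.192 to 0.554 CPM, and in H2O replicate 4, at 0.315 CPM. The endothelial, mural and blood counts are also given without Abx_SCFA replicate 5, as are the genes in which that library stood apart.

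No gene of 12846 tested passed a Benjamini-Hochberg adjusted p of 0.05 in the quasi-likelihood test of edgeR (0% called), and the smallest adjusted p was 0.999. DESeq2 and limma-voom also called 0 genes. At an unadjusted p below 0.05, 238 genes stood higher with the fatty acids (1.85% of those tested) and 172 lower (1.34%), and DESeq2 gave 438 genes at that threshold over both directions. In edgeR, both directions together held 410 genes (3.19%), fewer than the 5% that this threshold gives on average when no gene differs. All 5 Abx_SCFA libraries lay above all 4 Abx libraries for 94 genes (0.732%) and below them for 60 genes (0.467%). Scaling centred the fold changes, with 6407 positive and 6439 negative, and the median SD of log2 CPM within a group was 0.13 in Abx_SCFA and 0.15 in Abx. The results that follow are therefore descriptions of sizes, directions and overlaps, and none of them passed a test across genes.

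**Figure D1:**
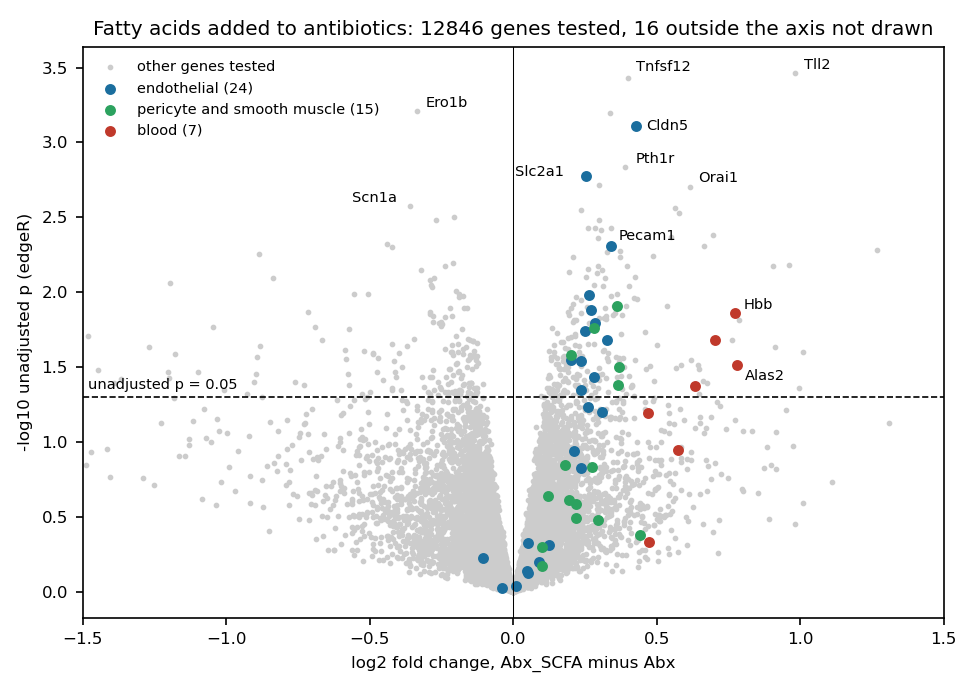
Log2 fold change of Abx_SCFA against Abx (horizontal axis) and -log10 of the unadjusted edgeR p (vertical axis) for the genes tested; the 16 genes with a log2 fold change beyond 1.5 in either direction are not drawn. Coloured points are the endothelial, pericyte and smooth muscle, and blood lists, of which 12, 5 and 4 members lie above the dashed line of the unadjusted threshold, all on the right.

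Among 38 gene lists, the endothelial and barrier list held the most members at an unadjusted p below 0.05 by number, while the small blood list held a larger share (57.1%). Of its 24 tested genes, 22 had positive log2 fold changes with a median of 0.24, against a median of all genes near 0. At an unadjusted p below 0.05, 12 of the 24 stood higher (50% of the list against 1.85% of all genes) and 0 lower. Cldn5 and Esam were the 2 members whose groups did not overlap, against 0.732% of all genes in that direction. The summed level of the list was 1282 to 1497 CPM in Abx and 1544 to 1759 CPM in Abx_SCFA, and it was 1505 to 1574 CPM in H2O and 1362 to 1705 CPM in SCFA. The sums of the compared groups did not overlap, and the Abx sums also lay below all of the H2O sums. A sum is weighted towards the abundant members. The mean log2 CPM of the list weights members equally, and on it the groups did overlap. It ran from 4.68 to 4.96 in Abx, from 4.92 to 5.14 in Abx_SCFA and from 4.84 to 5.01 in H2O. In bulk tissue, fewer cells of a type and less RNA per cell cannot be told apart.

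Among the tight junction genes, 4 stood higher at an unadjusted p below 0.05. Cldn5, the main claudin of the brain endothelium, stood at 125, 101, 116 and 123 CPM in the Abx libraries and at 152, 139, 170, 140 and 181 CPM in the Abx_SCFA libraries. Every Abx_SCFA library was above every Abx library, and the log2 fold change was 0.43 ± 0.11 (SE; edgeR unadjusted p = 0.000772, adjusted p = 0.999). Water controls held 133 ± 12.5 CPM (SD, n = 5) and SCFA rats 136 ± 19.6 CPM (SD, n = 6), between the means of the 2 antibiotic groups. Esam, an adhesion molecule of endothelial contacts, read 28.6, 24.2, 24.8 and 28.3 CPM in Abx and 29.99, 30.3, 31.6, 29.4 and 37.9 CPM in Abx_SCFA. The Esam groups met closely, and the log2 fold change was 0.26 ± 0.09 (edgeR unadjusted p = 0.0105) and 0.19 without Abx_SCFA replicate 5 (edgeR unadjusted p = 0.0519). Ocln, the occludin gene, ran from 20.7 to 25.5 CPM in Abx and from 24.8 to 27.7 CPM in Abx_SCFA, and F11r, the junctional adhesion molecule A gene, from 10.7 to 14.6 and from 12.6 to 16.4 CPM. Both overlapped between the groups, with log2 fold changes of 0.20 ± 0.09 and 0.23 ± 0.11. The scaffold gene Tjp1 and the claudin gene Cldn12 had log2 fold changes of only 0.05 and 0.01, with unadjusted edgeR p of 0.47 and 0.921.

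Slc2a1, which encodes the glucose transporter GLUT1 of the barrier, stood at 212, 195, 189 and 237 CPM in Abx and at 233, 232, 242, 251 and 284 CPM in Abx_SCFA. Abx replicate 4 was within the Abx_SCFA range, and the log2 fold change was 0.25 ± 0.07 (edgeR unadjusted p = 0.00166). The efflux pump gene Abcb1a ran from 73.0 to 81.7 CPM in Abx and read 88.3, 119, 79.1, 79.8 and 107 CPM in Abx_SCFA, so that 3 of 5 libraries were above all of Abx. Its close relative Abcb1b, which may share reads with it, stood at 1.38 to 2.42 CPM in Abx and 1.42 to 2.09 CPM in Abx_SCFA. Mfsd2a, the barrier's lipid transporter, had a log2 fold change of 0.05 ± 0.13.

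The promoters of the 2 barrier genes with the smallest p are shown because these members head the list; each runs from 250 bases before to 50 bases after the transcription start, from RefSeq on GRCr8, which is not the build named in the submitters' processing notes. Capitals mark the GC box, searched as GGGCGG on both strands. The Cldn5 promoter lies at chr11:95718549-95718848 on the minus strand and the Slc2a1 promoter at chr5:138002272-138002571 on the plus strand.
Cldn5: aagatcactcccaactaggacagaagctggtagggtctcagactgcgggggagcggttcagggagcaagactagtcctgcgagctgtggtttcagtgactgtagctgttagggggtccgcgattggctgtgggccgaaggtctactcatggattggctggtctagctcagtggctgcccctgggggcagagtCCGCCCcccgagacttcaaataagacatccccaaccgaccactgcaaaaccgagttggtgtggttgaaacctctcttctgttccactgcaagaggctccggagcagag
Slc2a1: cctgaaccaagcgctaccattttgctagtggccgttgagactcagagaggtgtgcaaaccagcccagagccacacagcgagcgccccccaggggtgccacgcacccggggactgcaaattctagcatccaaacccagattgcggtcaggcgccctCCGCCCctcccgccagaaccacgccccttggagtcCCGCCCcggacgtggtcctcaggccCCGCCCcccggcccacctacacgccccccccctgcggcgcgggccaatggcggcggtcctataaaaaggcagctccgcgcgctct
The Cldn5 promoter held 1 GC box and 57.7% G and C, and the Slc2a1 promoter 3 GC boxes and 68.3% G and C. Of the 12 endothelial members at an unadjusted p below 0.05, 8 had a single promoter in the RefSeq table, and 6 of those 8 held a GC box, against 33.1% of all promoters. The ETS core AGGAAG, searched on both strands, was in 2 of the 8 (Flt1 and Eng), against 34.5% of all promoters. Both motifs were counted separately, whether or not their matches overlapped, and a match of letters is a description and not a binding site. The 33469 background promoters were not limited to genes tested here or matched for G and C, and enrichment was not tested.

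Adhesion and receptor genes of the endothelium stood in the same direction. Pecam1, the endothelial adhesion molecule CD31, read 26.7, 19.2, 20.9 and 24.1 CPM in Abx and 31.0, 25.4, 31.7, 25.9 and 29.9 CPM in Abx_SCFA. Abx replicate 1 overlapped with the fatty acid libraries, and the log2 fold change was 0.34 ± 0.11 (edgeR unadjusted p = 0.00493). Flt1, a receptor for vascular endothelial growth factor, stood at 171, 136, 129 and 159 CPM against 170, 175, 181, 174 and 197 CPM. The same pattern of high Abx replicates 1 and 4 and low replicates 2 and 3 was seen for Tek, the angiopoietin receptor, at 42.1, 29.9, 30.8 and 38.1 CPM against 36.0 to 45.4 CPM. Eng, the co-receptor endoglin, ran from 47.2 to 54.3 CPM in Abx and from 53.7 to 70.5 CPM in Abx_SCFA. The log2 fold changes of Flt1, Tek and Eng were 0.27 ± 0.10, 0.25 ± 0.10 and 0.29 ± 0.11. Kdr, the other main growth factor receptor, and Cdh5, the cadherin of endothelial contacts, had 0.09 ± 0.18 and 0.05 ± 0.16, with overlapping groups. Lef1, a transcription factor of the Wnt pathway that maintains the barrier, had 0.33 ± 0.13, and Ets1, an endothelial transcription factor, 0.23 ± 0.10. Vwf, Emcn, Sox17 and Egfl7 lay between 0.21 and 0.31 without reaching the unadjusted threshold, and Plvap, a gene of leaky vessels, was near the detection limit at 0.114 to 0.829 CPM in Abx and 0.382 to 0.639 CPM in Abx_SCFA.

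**Figure D2:**
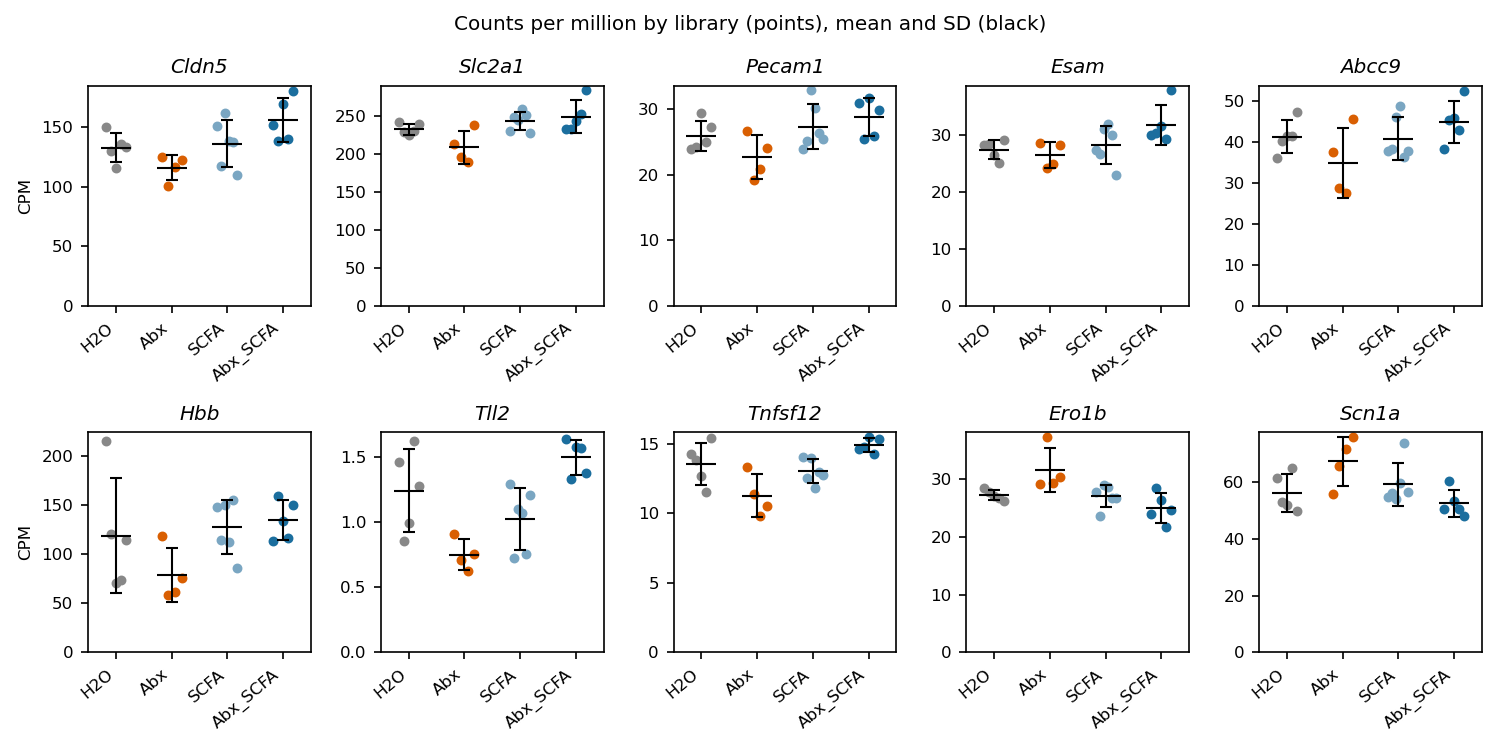
CPM of 10 genes in each library (points) of the 4 groups, with the mean and SD in black and every vertical axis starting at 0. Cldn5, Esam, Tll2 and Tnfsf12 are higher in all 5 Abx_SCFA than in all 4 Abx libraries, Ero1b is lower in all 5, and for Slc2a1, Pecam1, Abcc9, Hbb and Scn1a the groups overlap.

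The endothelial pattern rested on few libraries. Abx replicates 2 and 3 were both among the lowest 2 of the 9 libraries for 14 of the 24 members, and Abx_SCFA replicate 5 was the highest for 13. Without Abx replicate 2, 4 members were at an unadjusted p below 0.05, beside 197 of all genes tested in that direction, with a list median of 0.17. Without Abx_SCFA replicate 5 there were also 4, beside 136 of all genes, with a median of 0.17. In both cases the 4 were among the 12. Comparing with the 2-hundred or the 3-hundred Abx rats alone left 5 members in each case, beside 167 and 327 of all genes. The list medians were 0.22 and 0.23. Leaving out Abx replicate 3 and Abx_SCFA replicate 5 together left 3 members, beside 99 of all genes, and a median of 0.15. The log2 fold change of Cldn5 stayed between 0.36 and 0.46 when any 1 library was left out.

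The mural cells of the vessels showed a similar direction. All 15 tested pericyte and smooth muscle genes had positive log2 fold changes with a median of 0.22, and 5 stood higher at an unadjusted p below 0.05, against 1.85% of all genes. Abcc9, a potassium channel subunit of pericytes, read 37.4, 28.7, 27.5 and 45.6 CPM in Abx and 38.1, 45.4, 45.8, 42.7 and 52.2 CPM in Abx_SCFA. Abx replicates 2 and 3 were again low, while replicate 4 lay within the fatty acid range, and the log2 fold change was 0.36 ± 0.13. Kcnj8, the channel pore that pairs with Abcc9, had 0.36 ± 0.17, the pericyte peptidase gene Anpep 0.37 ± 0.16, the pericyte matrix gene Vtn 0.28 ± 0.11 and the signalling regulator Rgs5 0.20 ± 0.08. Contractile genes of smooth muscle were more scattered: Acta2, the smooth muscle actin, stood at 24.0, 15.8, 16.2 and 41.8 CPM against 32.1, 26.7, 43.4, 23.7 and 25.1 CPM, and Myh11 ran from 46.6 to 84.7 and from 40.1 to 86.2 CPM. Groups overlapped for each of the 15 genes. The list's sum was 335 to 516 CPM in Abx and 395 to 540 CPM in Abx_SCFA. Its count higher at an unadjusted p below 0.05 was 2, 0 and 10 without Abx replicates 2, 3 and 4. It was 3 and 1 without Abx_SCFA replicates 3 and 5. In the order of these 5 settings, 197, 132, 288, 164 and 136 of all genes stood higher at that p. The list median was 0.31 against the 2-hundred and 0.07 against the 3-hundred Abx rats alone. It was 0.34 without Abx replicate 4 and 0.14 without Abx_SCFA replicate 3.

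Blood markers stood in the same direction as the vascular lists. All 7 tested blood genes had positive log2 fold changes with a median of 0.63, and 4 were at an unadjusted p below 0.05 (1.85% of all genes). Hbb, a beta-globin gene, stood at 119, 58.4, 61.7 and 76.2 CPM in Abx and at 114, 160, 134, 117 and 150 CPM in Abx_SCFA, a log2 fold change of 0.77 ± 0.28. Abx replicate 1 reached the lower fatty acid libraries and the other 3 lay below all of them. Alas2, the erythroid enzyme of haem synthesis, had 0.78 ± 0.34, and Hba1 and Hbb-b1 had 0.70 ± 0.28 and 0.63 ± 0.29; the globin genes are near-identical copies, so their reads cannot be assigned with certainty. The list's sum was 172 to 342 CPM in Abx, 327 to 472 CPM in Abx_SCFA, 213 to 638 CPM in H2O and 275 to 468 CPM in SCFA, and 0 of its members were at 0 in all 9 libraries. The 4 members at an unadjusted p below 0.05 became 0 without Abx replicate 2, 1 without Abx replicate 3 or Abx_SCFA replicate 2 and 6 without Abx_SCFA replicate 4. Without Abx_SCFA replicate 5 the count stayed at 4. In the order of these settings, 197, 132, 315, 217 and 136 of all genes stood higher at that p.

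The mean log2 CPM of the blood list was 2.77, 1.98, 1.99 and 2.64 in Abx, and that of the endothelial list 4.94, 4.68, 4.68 and 4.96, with replicates 2 and 3 lowest in both. Another fit held the blood score as a covariate, chosen after the data were seen. There, 3 of 24 endothelial and 0 of 15 mural genes stood higher at an unadjusted p below 0.05. Of all genes tested, 197 did so, and the endothelial and mural medians were 0.15 and 0.18. Cldn5, Slc2a1 and Pecam1 then had log2 fold changes of 0.29, 0.20 and 0.32. With a score of cortical or of myelin genes as the covariate, 11 endothelial genes stood higher at that p in either fit. Of these, 11 and 10 were among the 12. Over all genes tested, 271 and 204 stood higher at that p.

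**Figure D3:**
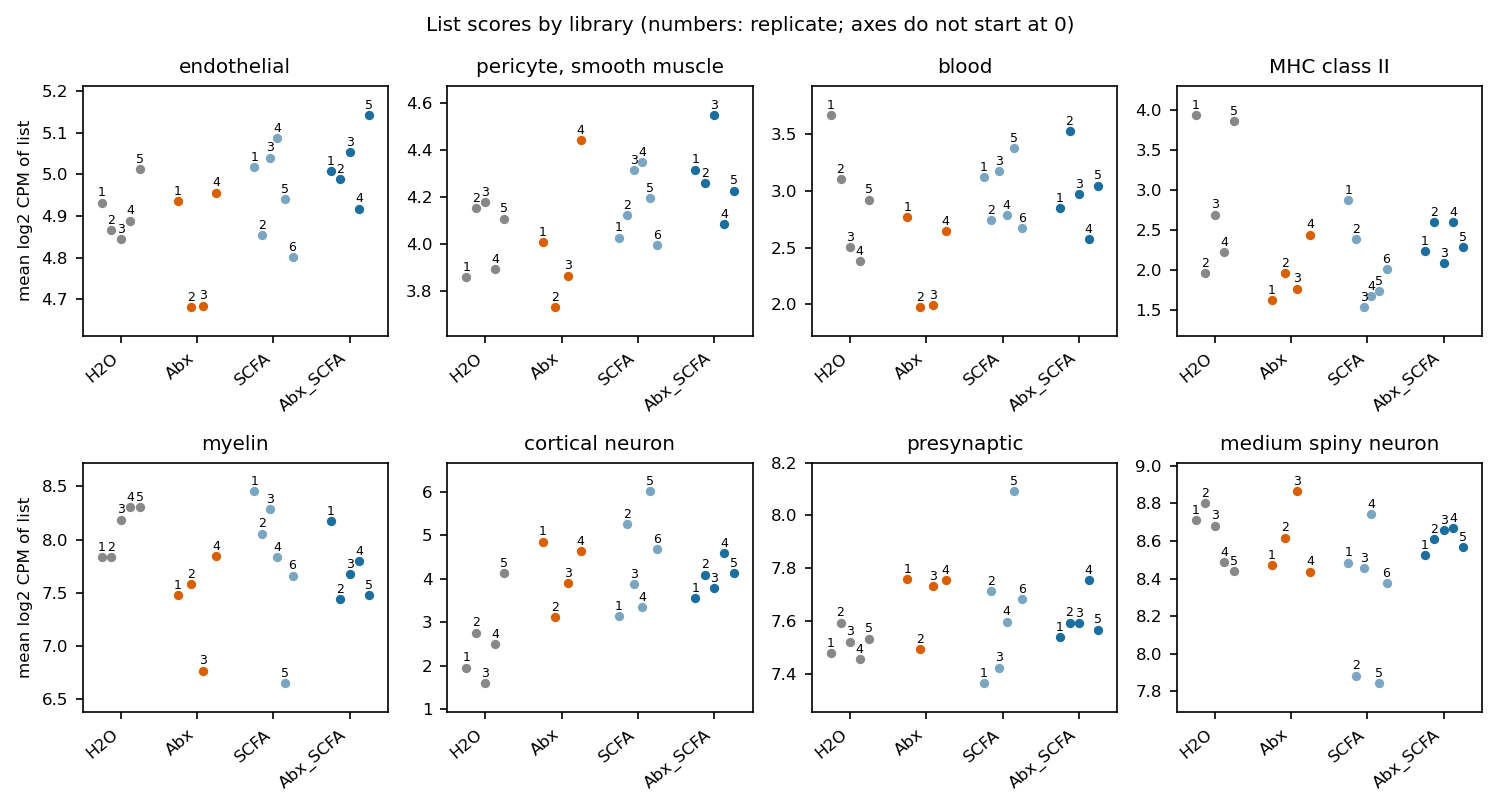
Mean log2 CPM of the members of 8 gene lists in each library, by group; numbers name the replicate, and the vertical axes do not start at 0. In Abx, replicates 2 and 3 hold the lowest endothelial scores (4.68) and the lowest blood scores (1.98 and 1.99), and the pericyte scores are also lowest in these libraries; replicate 3 holds the lowest myelin and the highest medium spiny neuron score.

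The endothelial, mural and blood lists held 12, 5 and 4 of the 238 genes higher at an unadjusted p below 0.05. They held 0 of the 172 lower genes, so most genes at that p lay outside these lists. The outside genes described next were taken by rank of p, up to 10 per direction, and were of mixed function. Which cells express them was not tested, so some may belong to vessels. Tll2, a secreted protease of the tolloid family, stood at 0.908, 0.71, 0.627 and 0.753 CPM in Abx and at 1.64, 1.33, 1.58, 1.57 and 1.38 CPM in Abx_SCFA. The groups did not overlap, with a log2 fold change of 0.98 ± 0.23 (edgeR unadjusted p = 0.000343), but each library held only 11 to 37 counts. Tnfsf12, the cytokine TWEAK, read 13.3, 11.4, 9.80 and 10.5 CPM in Abx and 14.6, 14.7, 15.5, 14.2 and 15.3 CPM in Abx_SCFA. It also did not overlap, with a log2 fold change of 0.40 ± 0.09 (edgeR unadjusted p = 0.000369), and H2O rats held 13.5 ± 1.5 CPM (SD, n = 5), between the 2 means. Orai1, the pore of store-operated calcium entry, ran from 4.34 to 5.93 CPM in Abx and read 6.60, 7.04, 7.16, 6.95 and 11.1 CPM in Abx_SCFA, so that replicate 5 stood apart; its log2 fold change was 0.61 ± 0.17 and 0.44 without that library. Capg, an actin-capping protein gene of macrophages, ran from 3.27 to 5.41 and from 5.50 to 6.79 CPM, a log2 fold change of 0.57 ± 0.17. Pth1r, the parathyroid hormone receptor, ran from 7.86 to 9.24 and from 10.1 to 13.2 CPM, with 0.39 ± 0.11. Neither gene overlapped between the groups. Rgcc, a cell cycle regulator, and the transmembrane protein genes Tmem243 and Tmem254 had 0.30, 0.34 and 0.24.

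The 10 genes with the smallest p on the lower side differed by 0.44 or less on the log2 scale. Ero1b, an oxidase of protein folding in the endoplasmic reticulum, stood at 29.2, 37.3, 29.4 and 30.4 CPM in Abx and at 24.0, 28.5, 26.4, 21.6 and 24.7 CPM in Abx_SCFA. The groups did not overlap, with a log2 fold change of -0.33 ± 0.08 (edgeR unadjusted p = 0.00062), and it was -0.25 without Abx replicate 2. Scn1a, a voltage-gated sodium channel of interneurons, read 56.0, 65.9, 71.8 and 76.2 CPM in Abx and 50.5, 60.4, 53.5, 50.6 and 48.2 CPM in Abx_SCFA. Abx replicate 1 lay within the fatty acid range, and the log2 fold change was -0.36 ± 0.10. The calcium channel gene Cacna1e read 136, 155, 184 and 188 CPM against 138, 148, 125, 140 and 112 CPM, and the plasma membrane calcium pump gene Atp2b3 105, 118, 140 and 126.5 CPM against 108, 106, 102, 102 and 87.7 CPM. Their log2 fold changes were -0.32 ± 0.11 and -0.28 ± 0.09; with the 2-hundred Abx rats alone they were -0.14 and -0.15, and with the 3-hundred rats alone -0.49 and -0.41. Tnik, a kinase of the postsynapse, had -0.21 ± 0.06 without overlap, and it was -0.19 without Abx_SCFA replicate 5, -0.10 with the 2-hundred and -0.32 with the 3-hundred Abx rats. Ap4e1, Cetn4, Pfkfb2 and Eml5 also did not overlap, with log2 fold changes from -0.44 to -0.21, and Spata6l had -0.42 with overlap.

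Immune genes showed small positive differences. Of 25 inflammatory genes, 22 had positive log2 fold changes with a median of 0.12, and 2 stood higher at an unadjusted p below 0.05, against 1.85% of all genes. Tgfb1, the cytokine TGF-beta 1, read 13.3, 10.1, 9.40 and 12.5 CPM in Abx and 14.8, 12.2, 14.7, 13.3 and 14.6 CPM in Abx_SCFA, a log2 fold change of 0.29 ± 0.10 with overlap. Cxcl12, a chemokine made by vessels and stroma, read 180, 117, 124 and 134 CPM and 170, 160, 168, 163 and 210 CPM, with Abx replicate 1 among the fatty acid libraries; its log2 fold change of 0.33 ± 0.14 was 0.25 without Abx_SCFA replicate 5 (edgeR unadjusted p = 0.0959). In the interferon list, 16 of 27 genes were positive with a median of 0.04, which was -0.01 without Abx replicate 3 or Abx_SCFA replicate 2 and 0.13 without Abx replicate 2. Against the same 1.85% of all genes, 2 were higher at that p: Ifi27, which read 51.1, 41.8, 41.9 and 40.7 CPM against 47.1 to 59.7 CPM, and B2m, the light chain of MHC class I, which read 262, 254, 246 and 246 CPM against 275, 384, 281, 309.4 and 302 CPM. B2m did not overlap, and its log2 fold change of 0.30 ± 0.13 was 0.08 with the blood score as a covariate. Of 9 MHC class II genes, 8 were positive with a median of 0.61, but 0 reached the unadjusted threshold. RT1-Da, a class II alpha chain gene with similar relatives, stood at 1.78, 4.12, 2.11 and 4.83 CPM against 5.20, 6.77, 4.13, 7.73 and 4.28 CPM. Abx replicates 2 and 4 were close to or within the fatty acid range. The list median was 1.02 without Abx replicate 4, 0.33 without Abx_SCFA replicate 2, 0.38 without Abx_SCFA replicate 4 and 0.06 with the blood score as a covariate. It was 0.27 with limma-voom, with or without quality weights, and 0.93 against the 2-hundred Abx rats.

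Medians of the glial lists were positive. For 23 microglia genes the median was 0.10, with 18 positive and 0 at an unadjusted p below 0.05, and it was 0.03 and 0.05 without Abx_SCFA replicates 1 and 5. Aif1, the microglial protein IBA1, read 21.5, 15, 13.2 and 14.5 CPM in Abx and 15.7, 21.3, 17.4, 15.9 and 20.6 CPM in Abx_SCFA, with one Abx library above all others. Astrocyte genes had a median of 0.07 with 16 of 21 positive, and the median was -0.02 against the 2-hundred and 0.14 against the 3-hundred Abx rats; with 1 library left out it ran from 0.03 (Abx replicate 4) to 0.12 (Abx replicate 1). Gfap, the intermediate filament gene of astrocytes, ran from 362 to 530 CPM and from 471 to 728 CPM. All 27 myelin genes were positive with a median of 0.25, but just 1 of them, Plekhb1, was at an unadjusted p below 0.05. Mbp, myelin basic protein, stood at 5689, 5236, 2877 and 6083 CPM in Abx and at 9666, 5331, 7146, 6714 and 6249 CPM in Abx_SCFA. Abx replicate 3 was far below the rest, and the list median was 0.07 without that library, 0.11 without Abx_SCFA replicate 1 and 0.40 without Abx replicate 4. The summed myelin level was 8542 to 17780 CPM in Abx and 14360 to 25200 CPM in Abx_SCFA, and its part in other differences was not tested beyond the covariate fit given above.

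**Figure D4:**
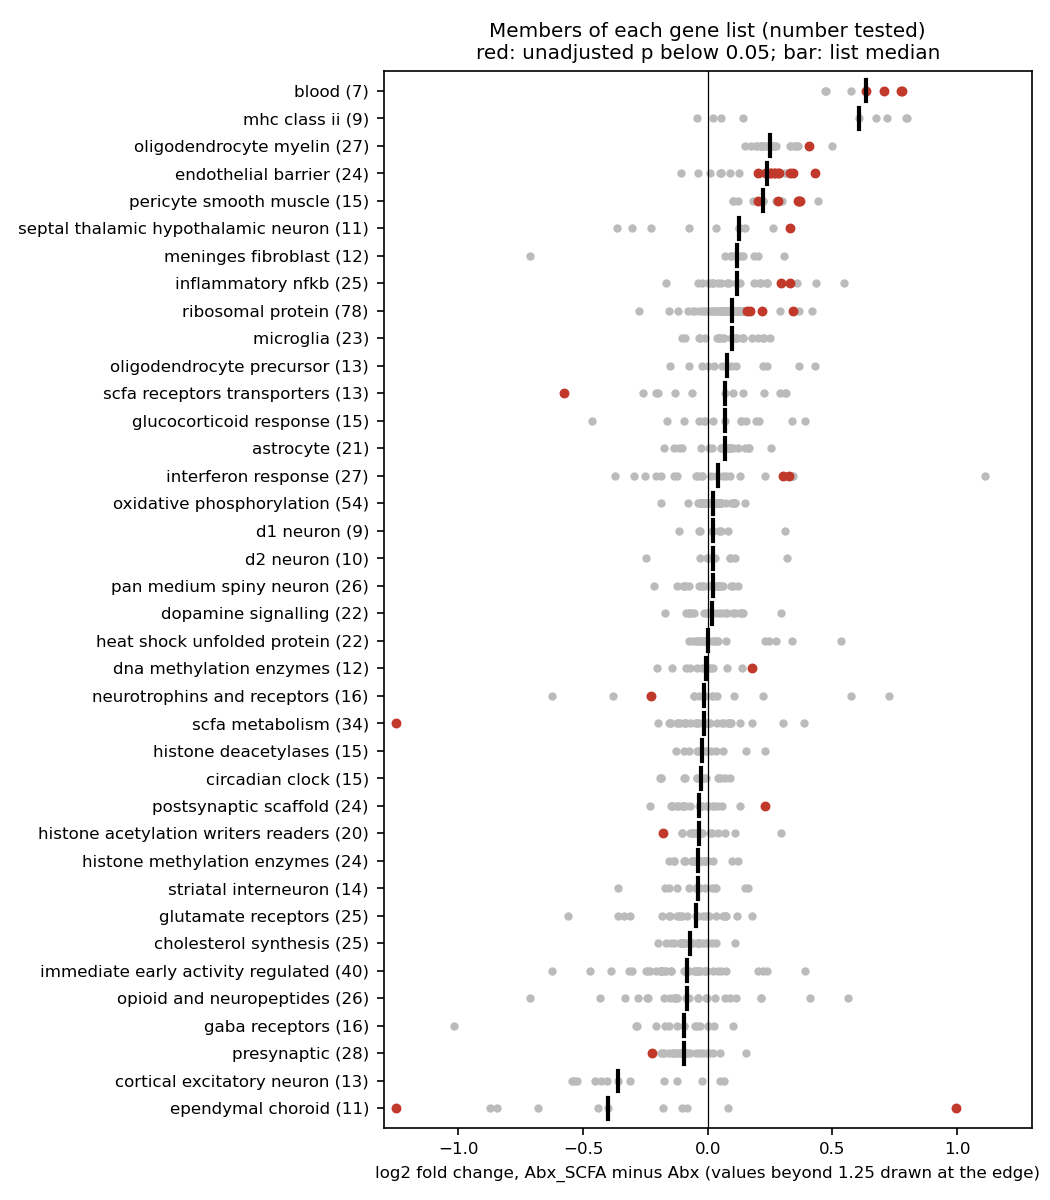
Log2 fold changes of Abx_SCFA against Abx (horizontal axis) for the tested members of each of 38 gene lists (rows, with their number), with members at an unadjusted p below 0.05 in red and the list median as a black bar; values beyond the axis are drawn at its edge. The endothelial row holds 12 red points of 24, and the blood, MHC class II, myelin and pericyte rows have medians of 0.63, 0.61, 0.25 and 0.22.

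With all libraries, medium spiny neuron genes were nearly level between the groups. The 26 genes shared by both classes of medium spiny neuron had a median of 0.02, and those of the D1 and D2 lists also 0.02, with 0 members of the 3 lists at an unadjusted p below 0.05. With 1 library left out, the shared, D1 and D2 medians ran from -0.04 to 0.08, -0.01 to 0.13 and -0.03 to 0.16. Without Abx replicate 3 and Abx_SCFA replicate 5 together, they were 0.11, 0.17 and 0.17. Drd2 had a log2 fold change of 0.09 ± 0.18, Pdyn and Penk, the opioid precursors of the 2 cell classes, 0.08 ± 0.20 and 0.11 ± 0.22, and Drd1 0.02 ± 0.19. Synaptic lists leaned down: 24 of 28 presynaptic genes were negative with a median of -0.10, and 1 of them, Pclo, the active zone protein piccolo, was lower at an unadjusted p below 0.05 (1.34% of all genes), at 208, 215, 255 and 251 CPM against 199, 210, 188, 216 and 180 CPM. GABA receptor genes had a median of -0.09 with 13 of 16 negative, and glutamate receptor genes -0.05; with 1 library left out these medians ran from -0.14 to -0.06 and from -0.10 to -0.05. Ntrk3, a neurotrophin receptor gene, had -0.23 ± 0.11, and Homer3, a postsynaptic scaffold gene, 0.23 ± 0.09 without overlap.

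Activity-regulated genes were more even in Abx_SCFA than in Abx. Of 40 immediate early genes, 32 were negative with a median of -0.08, and 0 were at an unadjusted p below 0.05. That median was 0.01 without Abx replicate 1 and -0.17 without Abx replicate 2. Fos stood at 50.1, 28.2, 24.6 and 40.2 CPM in Abx and at 29.7, 28.5, 32.4, 32.7 and 27.8 CPM in Abx_SCFA. Npas4, an activity-dependent transcription factor gene, read 43.2, 19.6, 21.7 and 35.6 CPM in Abx and 21.1, 26.3, 17.98, 24.5 and 18.7 CPM in Abx_SCFA. For both genes, Abx replicates 1 and 4 were high and replicates 2 and 3 lay in or near the range of the fatty acid rats. Bdnf, a neurotrophin gene that cortical neurons express strongly, stood at 25.3, 1.28, 4.56 and 8.60 CPM against 3.80 to 11.5 CPM, and Egr1 at 149, 112, 143 and 169 CPM against 106 to 140 CPM. The cortical score was likewise highest in Abx replicates 1 and 4, at 4.85 and 4.63, against 3.12 and 3.90 in replicates 2 and 3 and 3.56 to 4.59 in Abx_SCFA. The cortical list itself had a median of -0.36 with 11 of 13 genes negative, summed to 413.3 to 1024 CPM in Abx and 516 to 847 CPM in Abx_SCFA, and 0 of its members were at 0 in all 9 libraries. The cortical median was -0.07 and -0.11 without Abx replicates 1 and 4, -0.66 and -0.57 without Abx replicates 2 and 3, and -0.23, -0.24 and -0.605 without Abx_SCFA replicates 1, 3 and 4. The median of the immediate early list was -0.05 when the fit held the cortical score as a covariate and -0.20 with the blood score. The score's SD over libraries was 0.30 in Abx and 0.08 in Abx_SCFA for the immediate early list, and the difference in spread was not tested.

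As lists, the genes that receive, carry or use the fatty acids differed little, with exceptions among low genes. Ffar2 was tested at 0.317 to 0.632 CPM in Abx and 0.213 to 0.535 CPM in Abx_SCFA, and Ffar3 was at or below 0.144 CPM in all 9 libraries. Slc16a1, the monocarboxylate transporter MCT1 of vessels and glia, read 63.8, 62.0, 57.8 and 73.5 CPM in Abx and 82.2, 63.4, 69.6, 84.3 and 76.3 CPM in Abx_SCFA. It leaned the same way as the vascular genes, with overlap and a log2 fold change of 0.23 ± 0.12 (edgeR unadjusted p = 0.0669). Slc16a7, the neuronal transporter MCT2, had -0.20 ± 0.21. Slc16a8, another monocarboxylate transporter gene, was lower without overlap (0.467% of all genes in that direction), at 1.38, 1.09, 1.48 and 1.23 CPM against 0.915, 0.96, 0.639, 1.03 and 0.803 CPM, a log2 fold change of -0.58 ± 0.26. Over the 13 receptor and transporter genes, 7 were positive with a median of 0.07, and 1 was lower at an unadjusted p below 0.05, against 1.34% of all genes. That median ran from -0.04 to 0.08 with 1 library left out and was -0.07 without the low count filter. Among 34 genes of fatty acid metabolism, 13 were positive and 1 was lower at that p, against the same 1.34%: Acot12, an acetyl-CoA hydrolase gene that stood at or below 0.615 CPM in all 9 libraries. Its log2 fold change was -1.58 ± 0.70. Acss2, which makes acetyl-CoA from acetate, had -0.003 ± 0.10.

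Chromatin genes differed little between the groups. Hdac1, Hdac2 and Hdac3, the class I deacetylases that butyrate inhibits, had log2 fold changes of -0.006 ± 0.09, -0.02 ± 0.07 and -0.04 ± 0.06. The 15 deacetylase and sirtuin genes had a median of -0.02 with 0 at an unadjusted p below 0.05, and the writers and readers of histone acetylation had -0.04 with 14 of 20 negative. Ncoa2, a nuclear receptor coactivator of that list, had -0.18 ± 0.07. Mbd3, which encodes a methyl-CpG binding domain protein, had 0.18 ± 0.07, and the DNA methyltransferase gene Dnmt3a -0.20 ± 0.10. Ribosomal protein genes were mostly positive, 69 of 78, with a median of 0.10 that was -0.01 against the 2-hundred and 0.21 against the 3-hundred Abx rats alone. Rpl30 led them at 131, 140, 176 and 136 CPM against 175, 177, 188, 184 and 200 CPM. Abx replicate 3 reached the fatty acid range, and the log2 fold change was 0.34 ± 0.10. Oxidative phosphorylation genes had a median of 0.02, heat shock genes 0.002, circadian genes -0.03 and genes of cholesterol synthesis -0.07, each with 0 members at an unadjusted p below 0.05.

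The same acids without antibiotics were compared in SCFA against H2O, which shares no library with Abx_SCFA against Abx, though both set the 4-hundred rats against the others. There, edgeR called 0 genes (the smallest adjusted p was 0.247), while 1053 genes stood higher (8.2%) and 717 lower (5.58%) at an unadjusted p below 0.05. Of the 24 endothelial genes, 20 were positive with a median of 0.04, and 0 stood higher and 1 lower at that p, the claudin gene Cldn12 with a log2 fold change of -0.21. The log2 fold change of Cldn5 was 0.04 in that comparison and 0.43 on antibiotics. The difference between both contrasts, tested as an interaction in the same fit after the data were seen, passed for 0 genes (smallest adjusted p = 0.622), and 1008 genes (7.85%) had an unadjusted p below 0.05. Cldn5 was the 1 endothelial gene of 24 among them, against 7.85% of all genes, at 0.39 on the log2 scale (edgeR unadjusted p = 0.0134). Tll2 and Tnfsf12 had interaction values of 1.27 and 0.46, and their SCFA against H2O values were -0.29 and -0.06. Cldn5, Tll2 and Tnfsf12 were chosen for a small p in Abx_SCFA against Abx. That contrast is part of the interaction, so the choice favours large interaction values, which give no separate support. For MHC class II, 0 of 9 genes were positive in SCFA against H2O, with a median of -1.34, and 5 of 9 were below an unadjusted p of 0.05 in the interaction, with H2O replicates 1 and 5 holding the highest scores of all 20 libraries. Medium spiny neuron genes had a median of -0.29 in SCFA against H2O and 0.02 with antibiotics. Across the 12846 genes, which are not independent replicates, both sets of log2 differences had a Pearson r of -0.237 and the same sign for 47.4%.

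**Figure D5:**
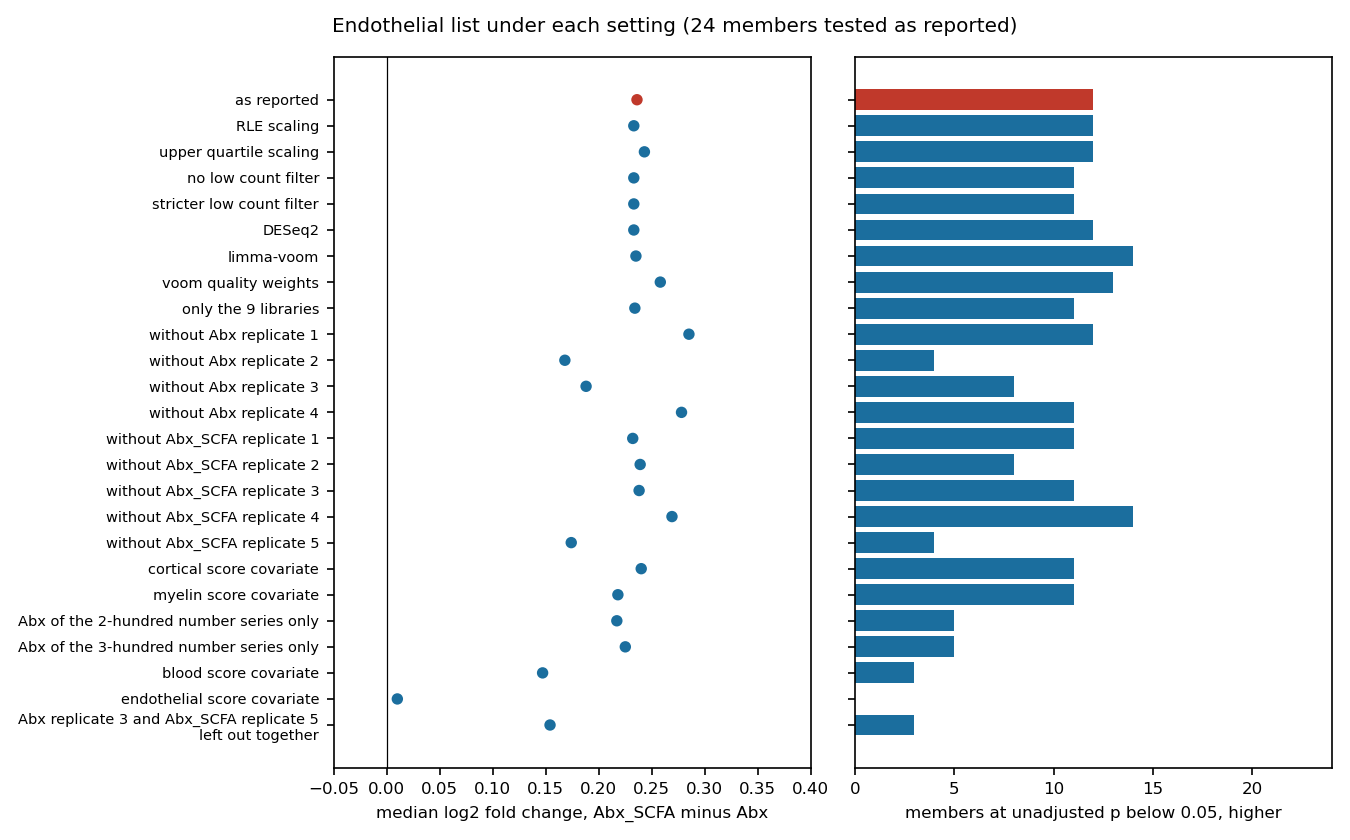
Median log2 fold change of the endothelial list (left) and number of its members at an unadjusted p below 0.05 in the higher direction (right) as reported (red) and under 24 other settings (blue). The median stays positive throughout and is 0.01 with the list's own score as a covariate; the count runs from 0 to 14.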

How the data were processed

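RNA from the nucleus accumbens was extracted with a column kit and turned into cDNA with a SMARTer kit, per the labels' protocols, which list polyA RNA. The deposited data are 1 table of the authors' whole-number counts per gene symbol for 20 libraries, 17296 symbols in all, 1822 of them at 0 throughout. FastQC 0.11.6, STAR 2.4.0, limma and Rnor_6.0 are named in the submitters' processing notes; the sources used here give no counting tool, strand setting or annotation, so overlapping, antisense or near-identical genes are uncertain (Rps9 and LOC103689992 hold identical counts). Groups came from the treatment labels, and replicate numbers only name libraries.

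The counts were tested by edgeR 4.0.16 with its quasi-likelihood method (R 4.3.3, TMM scaling, robust) in 1 model of the 4 groups over all 20 libraries, with 16 residual degrees of freedom. Filtering by expression (at least 10 counts in enough libraries and 15 in total) left 12846 genes, over which p-values were adjusted by Benjamini-Hochberg. Standard errors were derived from the F statistic. CPM are counts relative to the TMM-adjusted library size; log2 CPM used a prior count of 2, and a list's score is the mean over its members. Alternatives were other scalings and filters, DESeq2 1.42.0, limma 3.58.1 (voom, with and without quality weights), the 9 libraries alone, each library left out, covariates for list scores and either Abx number series. The script was tested on simulated counts. Libraries were also compared in pairs, and the chi-square per gene was at least 7.45 in all 36 pairs. No pair therefore looked like repeats of 1 library, and each was counted as 1 replicate. The check cannot show that cage mates are independent.

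The comparison, its members and the 38 lists were chosen with earlier results of these data known, so no list is independent support. Named genes are up to 10 per direction with the smallest p, an informative symbol and at least 1 CPM on average, then up to 2 per list with the smallest p (fewer where p was large), and genes whose levels are always given. Further endothelial, mural and blood genes were added after their values were seen. Hcar2 was not analysed here, and 1 member of the endothelial list is not reported by name. Promoters came from RefSeq on GRCr8.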

Additional observations from a re-analysis of the deposited data

Results flagged for a closer look

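In groups of 4 or 5 libraries, the gap from the highest or lowest value to its nearest neighbour was divided by the group's range (Dixon's test at 95%). Of 272 groups of named genes and list scores, 17 stood out (6.25%), where chance gives about 1 in 20.

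Abx replicate 2 accounted for 6. Its Ero1b stood at 37.29 CPM against 29.18 to 30.39 CPM in the other Abx libraries, Tmem212, a gene of ciliated cells, at 6.057 CPM against at most 0.456 CPM, and Gfap at 361.8 CPM against 519.8 to 530.1 CPM. Its ependymal score was high at 2.172 against at most 0.79, and its presynaptic and inflammatory scores were low, at 7.494 and 2.611. In Abx replicate 1, Ifi27 was high at 51.05 CPM.

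Abx_SCFA replicate 5 accounted for 4: Orai1 at 11.09 CPM, Cxcl12 at 210.2 CPM and Esam at 37.87 CPM were high, and Tnik at 130.9 CPM was low. Abx_SCFA replicate 1 was high for Homer3 at 27.39 CPM and for Ffar3 at 0.144 CPM, where the other 4 libraries held 0. Acot12 was high in replicate 3 at 0.213 CPM, and Acaa2, a mitochondrial thiolase gene, low in replicate 2 at 28.74 CPM. In replicate 4 the immediate early score was high at 5.012 and the presynaptic score at 7.755.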

How the results depend on the processing

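The count of 0 genes at the adjusted threshold held in all 24 other settings. The 410 genes at an unadjusted p below 0.05 became 832 with voom quality weights, 646 against the 3-hundred Abx rats alone and 190 without Abx replicate 3 and Abx_SCFA replicate 5 together; with 1 library left out the count ran from 247 (Abx_SCFA replicate 5) to 689 (Abx replicate 1), and it was 617 without Abx_SCFA replicate 2. The 154 genes whose groups did not overlap became 195 to 564 with 1 library left out, 390 without both libraries named, 886 against the 2-hundred and 1617 against the 3-hundred Abx rats, where fewer libraries make non-overlap easier. The 12 endothelial genes became 4 to 14 with 1 library left out. Over those settings, 132 to 388 of all genes stood higher at an unadjusted p below 0.05. The 12 became 5 against either Abx number series alone, 3 without both libraries and 3 with the blood score as a covariate. The endothelial score as a covariate left 0, beside 262 of all genes, and brought the list median to 0.01 by construction. The blood median was 0.06 with the blood score. Of 78 genes followed through the settings, 3 reversed: Tmem212 ran from -3.319 to 0.598 with 1 library left out (0.598 without Abx replicate 2) and was 0.07 against the 3-hundred Abx rats and 0.877 with the endothelial score, Grin3a was 0.022 against the 2-hundred Abx rats, and Hbb-b1 was -0.027 with the blood score. The causes were not tested. No paired analysis was possible because the labels give no shared replicate numbers.

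Depth limits genes near 0.1 to 0.2 CPM (Ffar3, Ttr); 4 and 5 rats from separate number series limit the rest.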
